A study of Mus musculus with 2 samples.

Results

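The Mir181 family comprised 6 of the 2202 microRNA genes in the deposited tables, namely Mir181a-1, Mir181b-1, Mir181a-2, Mir181b-2, Mir181c and Mir181d. The members were taken by their gene symbols in the annotation, by a rule that names no level, and all 6 were found. Small RNA was sequenced from the hearts of adult female mice of the strain label 5xFAD/CAST, aged 8 to 10 months, and the labels put its size under 30 without a unit. 5xFAD mice are a transgenic model of Alzheimer disease whose transgenes are driven by a neuronal Thy1 promoter, and CAST is a strain derived from wild mice. The labels do not say whether the sampled hearts carried the transgenes. The 2 libraries, labelled biological replicates 2 and 1, form 1 group without a control, and share a donor identifier, so the spread between them may be technical. Replicate 2 had 2877511 reads assigned to microRNA genes and replicate 1 had 4186560. Reads that fitted several loci went to no gene and made up 43.2% of the reads of replicate 2 and 42.4% of those of replicate 1.

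MicroRNAs are short RNAs cut from a hairpin precursor, whose 2 strands give the 5p and the 3p arm. Bases 2 to 8 of an arm, the seed, do most of the pairing with target messenger RNAs. The miR-181 family is known in mouse T cells, where miR-181a sets the sensitivity of the antigen receptor. In mouse and human endothelial cells miR-181b restrains NF-kB signalling, and in rat heart muscle cells miR-181c has been placed in mitochondria, where it represses a cytochrome oxidase subunit. The 6 genes lie as 3 neighbouring pairs on 3 chromosomes.

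The sequences are shown because they set which reads can be counted at 1 gene. All 6 genes had mature entries in RefSeq (build GRCm38.p6), 12 entries with 10 distinct sequences. The 4 distinct 5p arms are printed with the seed in capitals.
miR-181a-5p: aACAUUCAacgcugucggugagu
miR-181b-5p: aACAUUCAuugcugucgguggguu
miR-181c-5p: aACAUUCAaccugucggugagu
miR-181d-5p: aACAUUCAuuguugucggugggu
They share 1 seed, and no mature entry of a gene outside the family in that table had it. Outside the seed they differ little. The edit distance, the least number of single-base changes between 2 sequences, was 1 between miR-181a-5p and miR-181c-5p and 2 between miR-181b-5p and miR-181d-5p. Between the other combinations it was 4 or 5.

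The 3p arms are more varied, with 6 distinct sequences and 4 seeds, again in capitals.
miR-181a-1-3p: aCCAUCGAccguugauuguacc
miR-181a-2-3p: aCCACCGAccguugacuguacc
miR-181c-3p: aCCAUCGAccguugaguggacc
miR-181b-1-3p: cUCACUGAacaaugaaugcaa
miR-181b-2-3p: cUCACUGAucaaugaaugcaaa
miR-181d-3p: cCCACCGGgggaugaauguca
Counted from the 5′ end, miR-181a-1-3p and miR-181a-2-3p differ by U5C and U16C, the first of which lies in the seed. miR-181a-1-3p and miR-181c-3p differ by U16G and U19G and share a seed. miR-181b-1-3p and miR-181b-2-3p share a seed too.

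Of the 10 distinct arms, 8 were found at 1 place in the annotated transcripts and precursors, and the exceptions were miR-181a-5p and miR-181b-5p. miR-181a-5p is carried by both Mir181a-1 and Mir181a-2, and miR-181b-5p by both Mir181b-1 and Mir181b-2. The 30 bases that begin at the first base of these arms show where the copies part, with the bases that differ between the copies in capitals.
Mir181a-1: aacauucaacgcugucggugaguuuggAau
Mir181a-2: aacauucaacgcugucggugaguuuggGau
Mir181b-1: aacauucauugcugucgguggguuGAaCug
Mir181b-2: aacauucauugcugucgguggguuUGaAug
The Mir181a copies are identical over 27 bases, 4 beyond the end of the mature arm, whereas the Mir181b copies part at base 25, just after the mature arm. A read that starts at the first base of miR-181a-5p or miR-181b-5p and ends at or before the annotated end therefore fits 2 precursors. In windows of 18 bases along the precursors, 11 of 70 windows of Mir181a-1, 11 of 59 of Mir181a-2, 9 of 63 of Mir181b-1 and 9 of 72 of Mir181b-2 occurred in a second precursor. None of the 72 windows of Mir181c or the 55 of Mir181d did. The shared windows of Mir181a-1 and Mir181a-2 lay in each other, as did those of Mir181b-1 and Mir181b-2. Over all 2202 precursors, 1179 shared at least 1 such window with another precursor on either strand. Precursors that overlap each other in the genome can be among these.

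**Figure D1:**
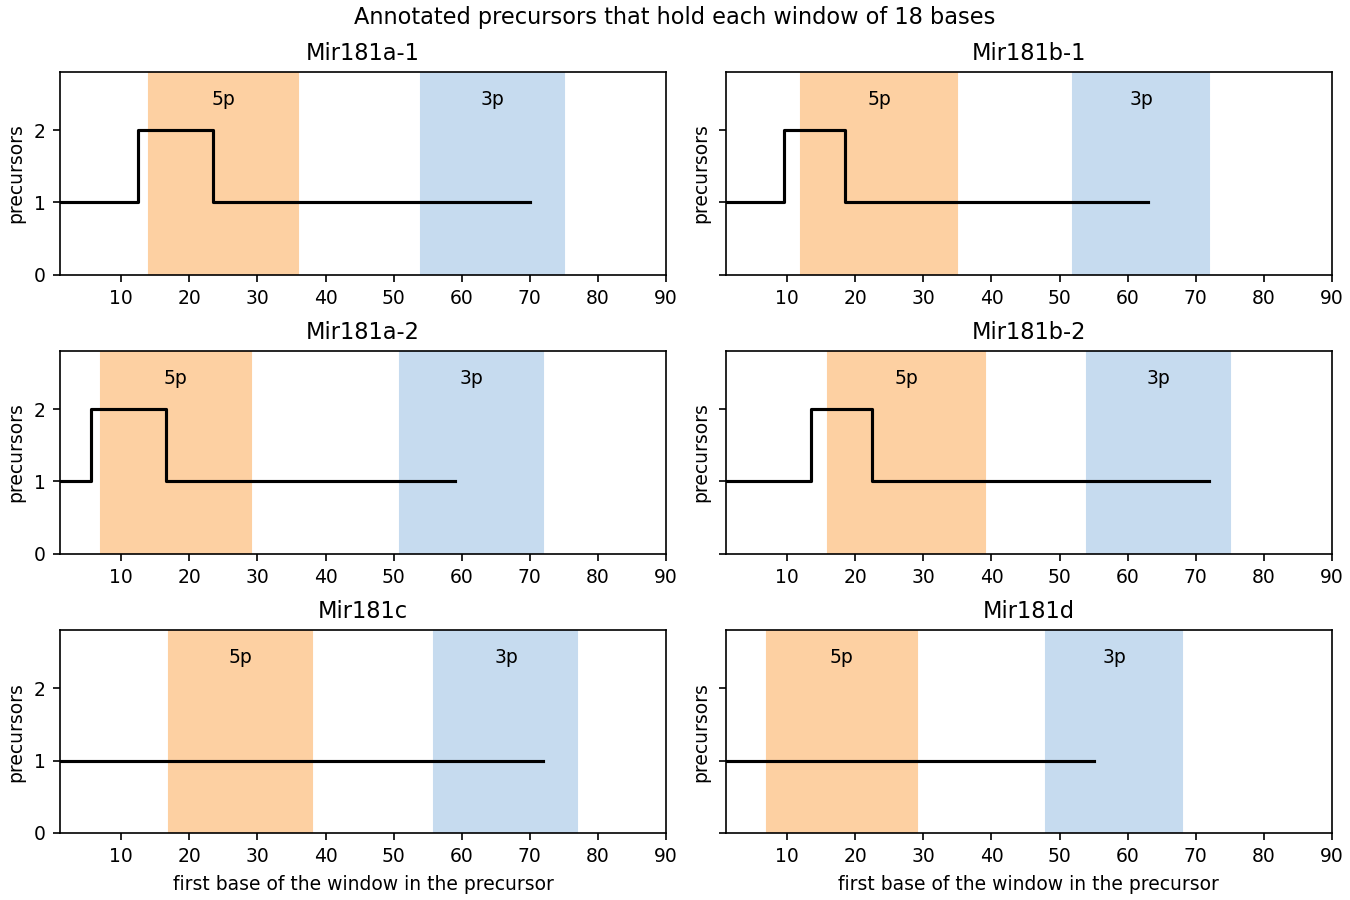
The number of annotated precursors that hold each window of 18 bases (vertical axis) is plotted against the window's first base in the precursor (horizontal axis, bases) for the 6 genes, with the 5p arm shaded orange and the 3p arm blue. The line reaches 2 for windows that start at or just before the 5p arm or in its first part in the Mir181a and Mir181b genes, and stays at 1 throughout Mir181c and Mir181d.

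All 6 Mir181 genes were detected at 1 count per 1000000 assigned reads (CPM) or more in both libraries, against 17.3% of all 2202 genes. Together they had 5817 counts in replicate 2 and 8010 in replicate 1. Their share of the assigned counts was 0.202% for replicate 2, with an exact 95% interval (Clopper-Pearson) of 0.197 to 0.207, against 0.191% for replicate 1, with 0.187 to 0.196. The mean share was 0.197% ± 0.00766 (SD, n = 2). The family's summed share was thus close in the 2 libraries, although these intervals did not overlap. Of its members, Mir181b-2, Mir181a-2 and Mir181c differed between the libraries under the main setting of the test below. The other members did not pass it. Intervals cover counting error only. Because reads of the shared arms may have gone unassigned, the counts of the Mir181a and Mir181b genes are lower limits and their CPM values set no limit on the microRNAs' abundance. In whole tissue, fewer cells of a type and less RNA per cell cannot be told apart.

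Mir181b-2, which encodes miR-181b, had the highest level of the family, with 1061 CPM in replicate 2 (3054 counts) and 743 CPM in replicate 1 (3112 counts). Its mean of 902 ± 225 CPM placed it at rank 65 of all genes. Mir181b-1, the other gene for miR-181b, had the lowest level, with 11.8 CPM in replicate 2 (34 counts) and 13.4 CPM in replicate 1 (56 counts). Its mean was 12.6 ± 1.10 CPM, at rank 246. The genes that share an identical miR-181b-5p arm thus stood at the opposite ends of the family in assigned counts. Reads that lie within that arm fit both genes and may have gone to neither. The counts therefore do not compare the output of that arm from each gene. Mir181b-2 had 89.8 times the counts of Mir181b-1 in replicate 2 (exact 95% interval 64.1 to 129.9), against 55.6 times in replicate 1 (42.7 to 73.7).

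Mir181d and Mir181c, whose arms had no second place in the annotated transcripts and precursors, came next. Mir181d, the source of miR-181d, had 638 CPM in replicate 2 (1835 counts) and 633 CPM in replicate 1 (2652 counts), a mean of 636 ± 3.004 CPM at rank 73. Mir181c had 223 CPM in replicate 2 (641 counts) and 368 CPM in replicate 1 (1542 counts), a mean of 296 ± 103 CPM at rank 93. Relative to its mean, Mir181d had the smallest SD of the 6 members, and Mir181c was lower in replicate 2. No 18-base window of either gene occurs in another annotated precursor.

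In assigned counts, the genes for miR-181a were low. These counts are lower limits, since reads of the shared miR-181a-5p arm may have gone unassigned. Mir181a-1 had 66.0 CPM in replicate 2 (190 counts) and 83.1 CPM in replicate 1 (348 counts), a mean of 74.6 ± 12.1 CPM at rank 147. Mir181a-2 had 21.9 CPM in replicate 2 (63 counts) and 71.7 CPM in replicate 1 (300 counts), a mean of 46.8 ± 35.2 CPM at rank 170. Mir181a-1 had 3.02 times the counts of Mir181a-2 in replicate 2 (exact 95% interval 2.26 to 4.08), against 1.16 times in replicate 1 (0.991 to 1.36), so that the interval in replicate 1 includes equal counts.

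In the order Mir181b-2, Mir181d, Mir181c, Mir181a-1, Mir181a-2, Mir181b-1, neighbouring genes did not overlap between libraries in CPM, except Mir181a-1 and Mir181a-2. Divided by precursor length, which ran from 72 bases for Mir181d to 89 for Mir181b-2 and Mir181c, the first places overlapped as well. Per base of precursor, Mir181b-2 had 11.9 CPM in replicate 2 and 8.35 in replicate 1, and Mir181d had 8.86 in replicate 2 and 8.80 in replicate 1. The top 3 genes held 95.1% of the family's assigned counts in replicate 2 and 91.2% in replicate 1. The counts of the Mir181a and Mir181b genes are lower limits, so neither this order nor this share ranks the microRNAs by abundance. Not a single read was counted on the opposite strand of any of the 6 genes in either library.

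**Figure D2:**
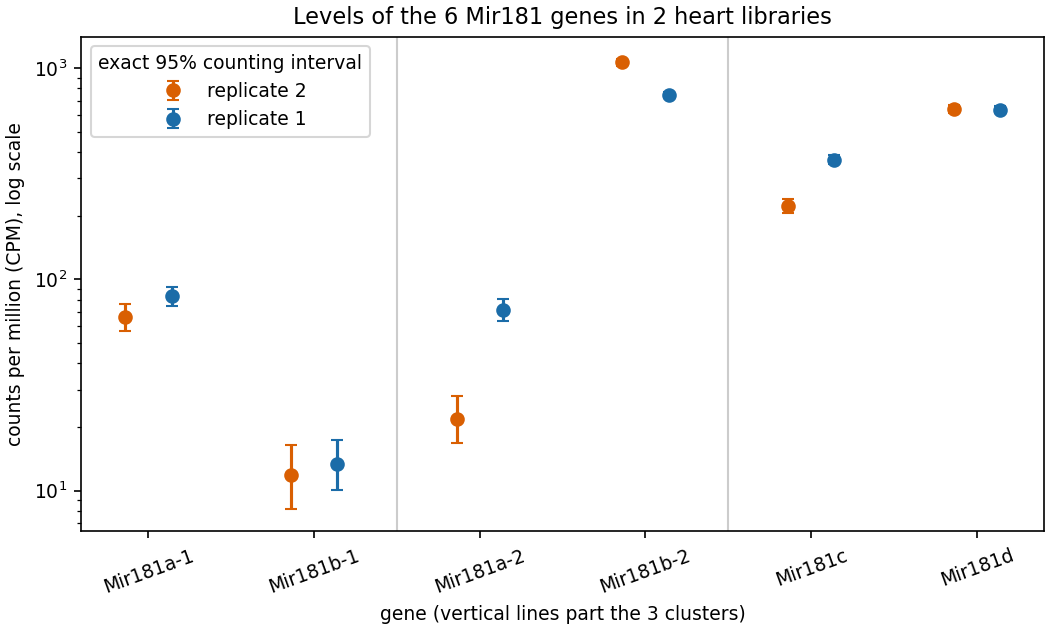
CPM on a log scale (vertical axis) for the 6 genes (horizontal axis, parted by cluster) in replicate 2 (orange) and replicate 1 (blue), with exact 95% counting intervals as bars. The levels run from 11.8 CPM for Mir181b-1 to 1061 CPM for Mir181b-2, and the libraries lie farthest apart at Mir181a-2.

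**Figure D3:**
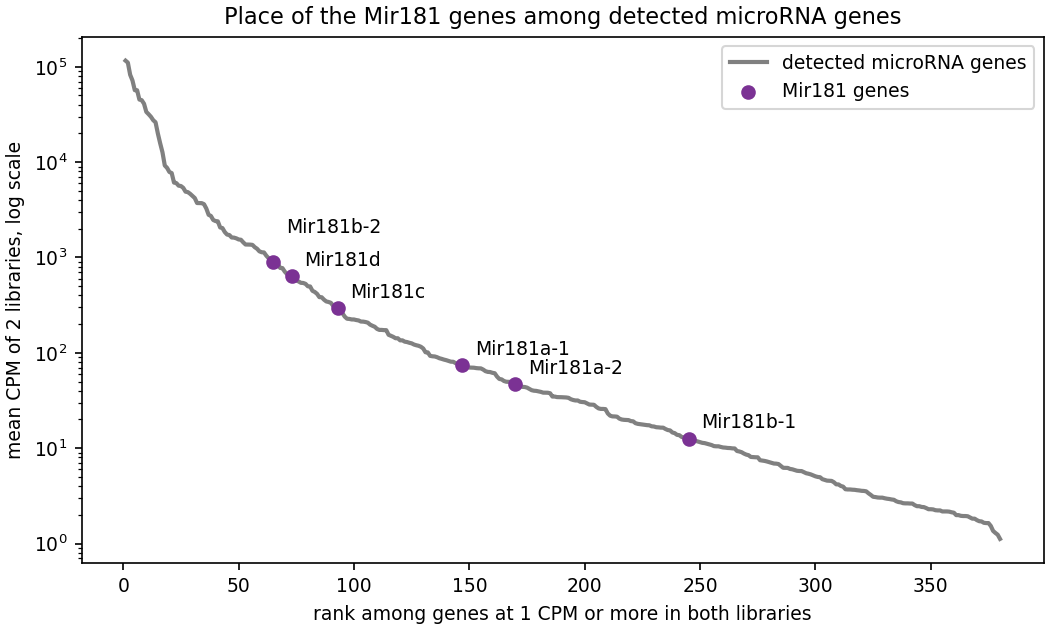
Mean CPM of the 2 libraries on a log scale (vertical axis) against rank among the 380 genes detected in both libraries (horizontal axis), with the Mir181 genes as purple points on the grey line of all detected genes. The members spread from rank 65 for Mir181b-2 well into the lower part of the curve.

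The assigned counts of the 3 clusters were unequal. Reads of the arms shared by the Mir181a and Mir181b genes may have gone unassigned. The shares below therefore do not rank the clusters by microRNA output. The cluster of Mir181a-2 and Mir181b-2 on chromosome 2 held 53.6% of the family's counts in replicate 2 (exact 95% interval 52.3 to 54.9), against 42.6% in replicate 1 (41.5 to 43.7). Its mean share was 48.1% ± 7.77 (SD, n = 2). The cluster of Mir181c and Mir181d on chromosome 8 held 42.6% in replicate 2 (41.3 to 43.8), against 52.4% in replicate 1 (51.3 to 53.5), with a mean share of 47.5% ± 6.93. Which of these clusters led therefore differed by library. The cluster of Mir181a-1 and Mir181b-1 on chromosome 1 was lowest in both libraries. It held 3.85% in replicate 2 (3.37 to 4.38), against 5.04% in replicate 1 (4.57 to 5.55), with a mean share of 4.45% ± 0.844.

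By the annotation of build mm10, the clusters lie in different kinds of gene. Mir181a-1 (chromosome 1, 137966455 to 137966541, plus strand) and Mir181b-1 (137966639 to 137966718) lie 97 bases apart in an intron of the noncoding gene Gm4258, opposite the noncoding gene Gm26936. Another noncoding gene, A430106G13Rik, spans all of Mir181b-1 but only the last 11 bases of Mir181a-1. Annotated exon sequence of A430106G13Rik overlaps each of them. Mir181a-2 (chromosome 2, 38852735 to 38852810, plus strand) and Mir181b-2 (38853830 to 38853918) lie 1019 bases apart on the strand opposite to Nr6a1, which encodes an orphan nuclear receptor, within its intron. Mir181b-2 also lies opposite an exon of Gm44144, a transcript of unverified status, and neither gene has an annotated host on its own strand. The noncoding Nr6a1os, on that strand, ends 364 bases before Mir181a-2. Mir181c (chromosome 8, 84178873 to 84178961, minus strand) and Mir181d (84178716 to 84178787) lie 85 bases apart in an intron of Nanos3, a gene known from germ cells. The host transcripts were not measured in these libraries.

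Within clusters, the gene with more assigned counts was not of the same kind. Mir181a-1 had 5.59 times the counts of Mir181b-1 in replicate 2 (exact 95% interval 3.86 to 8.31), against 6.21 times in replicate 1 (4.68 to 8.40). In the paralogous cluster the order was the opposite, with Mir181b-2 at 48.5 times the counts of Mir181a-2 in replicate 2 (37.8 to 63.2), against 10.4 times in replicate 1 (9.21 to 11.7). Mir181d had 2.86 times the counts of Mir181c in replicate 2 (2.62 to 3.14), against 1.72 times in replicate 1 (1.61 to 1.83). Such a ratio within a library does not depend on how the libraries are scaled. For the Mir181a and Mir181b genes it compares assigned reads only, since reads within the shared 5p arms may have gone to no gene. A ratio of these genes is therefore not a ratio of microRNA output.

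In assigned counts, the ratios of 2 of the 3 clusters differed between the libraries. The ratio of Mir181a-2 to Mir181b-2 was 0.0206 in replicate 2 and 0.0964 in replicate 1 (Fisher's exact test, adjusted p = 1.21e-34). The ratio of Mir181c to Mir181d was 0.349 in replicate 2 and 0.581 in replicate 1 (Fisher's exact test, adjusted p = 1.22e-19). The ratio of Mir181a-1 to Mir181b-1 did not pass (Fisher's exact test, adjusted p = 0.740), although the low count of Mir181b-1 limits that comparison. The p-values, two-sided, were adjusted over all 60 pairs of neighbouring microRNA genes with a gap of at most 10000 bases, of which 66.7% passed, so that a passing pair was the more common case. The absolute difference between the partners' log2 ratios was 2.22 for Mir181a-2 and Mir181b-2, rank 3 among the 60 pairs, whose median was 0.69. It was 0.74 for Mir181c and Mir181d, near that median, and 0.15 for Mir181a-1 and Mir181b-1, rank 52.

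**Figure D4:**
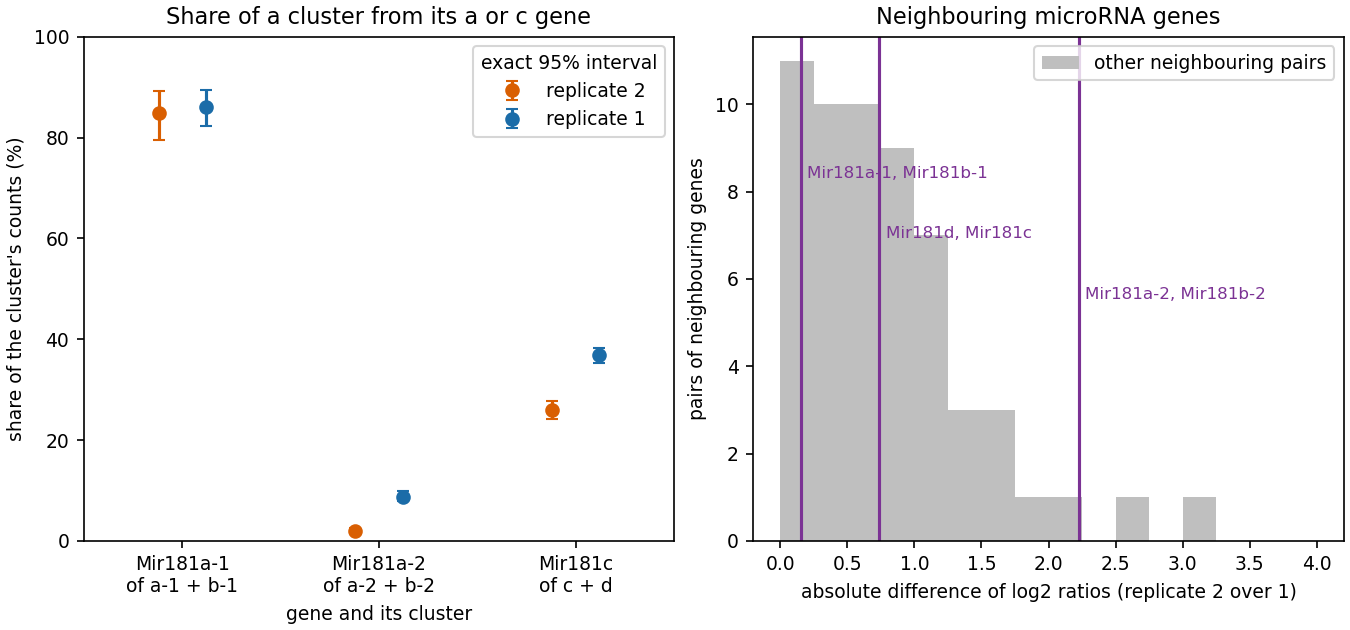
Left, the share of a cluster's counts (vertical axis, %) from its a or c gene for the 3 clusters in replicate 2 (orange) and replicate 1 (blue), with exact 95% intervals. Right, a histogram of the absolute difference of log2 ratios (horizontal axis) over neighbouring microRNA genes outside the family, with the 3 Mir181 clusters as purple lines, of which Mir181a-2 with Mir181b-2 stands at 2.22.

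Mir181b-2 was higher in replicate 2 than in replicate 1, Mir181a-2 and Mir181c were lower, and the other 3 members did not pass the test. All 6 passed the filter on low counts and were tested with an exact binomial test on counts scaled by TMM, two-sided, with Benjamini-Hochberg adjustment over all 309 genes tested and a threshold of 0.05. The test compares these libraries and not conditions, and its calls mark departure from counting error only. Of all genes tested, 63.4% passed, 35.3% higher and 28.2% lower in replicate 2, against 3 of the 6 members. With plain totals, DESeq2 size factors or strand ignored, 4 of the 6 members passed, against 63.1%, 60.2% and 60.4% of all genes in that order. With no filter beyond 1 count it was 3 of 6 against 30.2% of 709 genes, which include genes of few counts. With at least 50 counts summed it was 3 of 6 against 70.7%. Whether the members passed more or less often than other genes thus turned on the setting. With DESeq2 size factors the background split was 83 higher and 103 lower, against 109 higher and 87 lower with TMM.

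Mir181b-2 was higher in replicate 2, with a log2 ratio of replicate 2 over replicate 1 of 0.59 (exact 95% interval 0.51 to 0.66, adjusted p = 5.77e-56). Mir181a-2, its neighbour, was lower, with a log2 ratio of -1.64 (interval -2.05 to -1.24, exact test, adjusted p = 3.31e-19), which is 3.11-fold lower. It was the single member beyond 2-fold, as were 18.4% of all genes tested. Mir181c was lower, with a log2 ratio of -0.65 (interval -0.79 to -0.52, exact test, adjusted p = 1.38e-22).

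The genes that did not pass had log2 ratios of 0.08 for Mir181d (interval -0.01 to 0.17), -0.11 for Mir181b-1 (-0.77 to 0.53) and -0.26 for Mir181a-1 (-0.52 to -0.00128, exact test, adjusted p = 0.0715). The call of Mir181a-1 turned on the scaling: it passed as lower with plain totals (adjusted p = 0.0185), with DESeq2 size factors (0.00306) and with counts that ignore strand (0.0298) in the same exact test. The median log2 ratio of the members was -0.18, and the median over all genes tested was 0.01. The median absolute log2 ratio was 0.42 for the members and 0.51 for all genes tested.

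**Figure D5:**
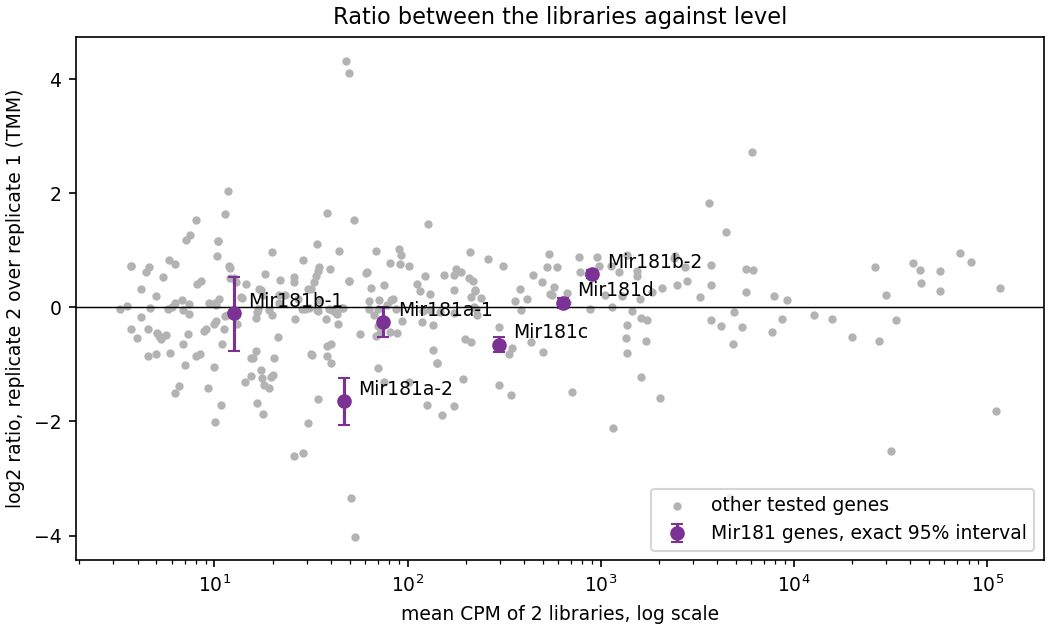
The log2 ratio of replicate 2 over replicate 1 after TMM scaling (vertical axis) against mean CPM on a log scale (horizontal axis), with the Mir181 genes in purple with exact 95% intervals and the other tested genes in grey. Mir181b-2 lies above 0, and Mir181a-2 and Mir181c lie below it by more than their intervals.

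The libraries also differed in microRNAs of cell types in which the family is known. In the leukocyte list (Mir142, Mir150, Mir155, Mir223 and Mir342) all 5 genes were detected and all 5 were higher in replicate 2, against 35.3% of all genes tested, with a summed level of 8349 CPM in replicate 2 and 5998 CPM in replicate 1. Its most abundant genes were Mir155, with 4122 CPM in replicate 2 and 3321 CPM in replicate 1, and Mir150 of mature lymphocytes, with 3029 CPM in replicate 2 and 1760 CPM in replicate 1. In the endothelial list, Mir221 and Mir222 were higher and Mir126a, the main endothelial microRNA, was lower, so that 3 of 3 passed against 63.4% of all genes tested, with a summed level of 49984 CPM in replicate 2 and 176135 CPM in replicate 1. Mir126a alone had 46780 CPM in replicate 2 and 174314 CPM in replicate 1, and Mir221 had 3079 CPM in replicate 2 and 1742 CPM in replicate 1.

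The heart label was checked with a cardiomyocyte list of 7 genes (Mir1a-1, Mir1a-2, Mir133a-1, Mir133a-2, Mir208a, Mir208b and Mir499), all at 1 CPM or more in both libraries, at a summed level of 4789 CPM in replicate 2 and 6544 CPM in replicate 1. Its leading genes were Mir499, with 3618 CPM in replicate 2 and 4787 CPM in replicate 1, and Mir208a, with 1074 CPM in replicate 2 and 1638 CPM in replicate 1, both hosted by myosin heavy chain genes. The muscle genes Mir1a-1, with 3.13 CPM in replicate 2 and 2.15 CPM in replicate 1, Mir133a-1, with 1.04 CPM in replicate 2 and 1.43 CPM in replicate 1, and Mir133a-2, with 2.43 CPM in replicate 2 and 1.91 CPM in replicate 1, were barely above that level and below the filter of the test. Mir1a-2 had 67.4 CPM in replicate 2 and 72.6 CPM in replicate 1. Reads that fitted several loci went to no gene, so these values set no limit on the abundance of the muscle microRNAs. Of the 4 tested genes of the list, 3 were lower in replicate 2 and 1 did not pass, against 28.2% lower over all genes tested. No list had a gene without counts. Median log2 ratios were 0.68 for the leukocyte list, 0.73 for the endothelial list and -0.43 for the cardiomyocyte list. The part of these cell types in the differences among the Mir181 genes was not tested.

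The genes whose levels were most like those of a member were found as the 3 Mir genes nearest to it in log2(CPM + 0.5) over the 2 libraries. With 2 libraries this measures a similar level and ratio and no more. Nearest to Mir181b-2 were Mir324, at a distance of 0.09, Mir17 at 0.18 and Mir10b at 0.21. Nearest to Mir181d were Mir484 at a distance of 0.10, Mir342 at 0.15 and Mir467d at 0.28. Mir181c had Mir378d at 0.23, Mir106b at 0.25 and Mir125b-1 at 0.31. The least abundant members had near neighbours as well. Mir181a-1 stood near Mir101a at a distance of 0.15, Mir148b at 0.15 and Mir345 at 0.19, and Mir181b-1 near Mir1930 at 0.15, Mir677 at 0.16 and Mir378b at 0.22. Mir181a-2 had the most distant set, with Mir383 at 0.48, Mir29b-2 at 0.58 and Mir3058 at 0.68.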

How the data were processed

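Each library has 1 deposited table of unnormalized counts of reads by microRNA gene, made on build mm10 with annotation release M21, per the deposited readme. The aligner is not given in the sources used here. Unassigned reads (unmapped, at several loci, outside genes or ambiguous), 67.8% of the 8930289 reads of replicate 2 and 68.4% of the 13233055 of replicate 1, stayed out. Counts on the gene's strand were used. CPM was taken over assigned counts, where 3 counts are 1.04 CPM in replicate 2 and 0.717 in replicate 1. A chi-square test over genes with counts gave 830.1 per degree of freedom, more than sampling noise, and the libraries were kept as the 2 replicates that the labels number; this does not show that they came from separate animals.

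Counts were scaled with TMM (edgeR 4.0.16, R 4.3.3) over genes kept by filterByExpr with a minimum count of 10. DESeq2 1.42.0 gave alternative size factors. The binomial step was tested on counts simulated with counting error only. That setting lacks the further spread seen between these libraries. RefSeq had hairpins for 5 members, all but Mir181c, and all 5 equalled the annotated precursors. Arms were matched on both strands in the transcripts of release M21, with transcripts over a member's own locus as the same place, since the whole genome was not used here. Fisher's exact test was first planned for adjustment over the 3 clusters. Genes named by rule were the members, the 2 most abundant genes of each list, the 3 genes nearest to each member and the genes annotated at the loci. Other list members define the lists. Outside this rule, values were also given for the Mir1a and Mir133a genes of the cardiomyocyte list. Members and lists were chosen with earlier results of these data known. Alternatives covered strand, scaling, filters, detection level, denominator, pseudocount, matching length and leaving out each library. Python 3.11.15, numpy 2.4.6, scipy 1.17.1, pandas 2.3.3 and matplotlib 3.10.9 were used.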

Additional observations from a re-analysis of the deposited data

How the results depend on the processing

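Of 80 recomputed values, 34 could not change by more than the spread between replicates by construction: 28 leave out 1 of 2 libraries, and the others are shares and ratios within the family with strand ignored. Of the remaining 46, 34 were scored as unchanged. A log2 ratio had to keep its direction and side of the threshold. Levels and shares had to move by less than that spread, and counts of genes or arms had to stay within 1.5-fold. A change from 3 to 4 called members was thus scored as unchanged. The family's share of 0.197% became 0.264% with counts that ignore strand, 0.0628% of all reads, and 0.581% without the 10 most abundant genes. By construction these alternatives change the total that divides the counts, since the members' own counts are equal in both strand columns. Mean CPM with strand ignored rose likewise, for example to 1197 for Mir181b-2. Leaving out each library gave shares of 0.191% to 0.202%, and 21.9 to 71.7 CPM for Mir181a-2, whose mean was 46.8 CPM. DESeq2 size factors moved the median log2 ratio of all genes from 0.01 to -0.14, and Mir181d from 0.08 to -0.067, which is 0.07 above the median in each case; its adjusted p ranged from 0.0876 to 0.874 over all settings. Mir181a-1 passed under 3 of 5 alternatives, so 4 members were called instead of 3. With no filter beyond 1 count, 214 of 709 genes were called instead of 196 of 309. The alternative pseudocount of 5 kept 17 of the 18 nearest genes. All arm counts stayed at 8 of 10. Matching of arms in the whole genome was not run. No paired analysis was possible because there is 1 group. Depth limits Mir181b-1 most, with 34 counts in replicate 2 and 56 in replicate 1.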

Other observations

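Across the whole annotation, the 1179 precursors that share a window of 18 bases with another precursor were detected in 9.25% of cases, against 26.5% of the 1023 that share none. The 1179 can include precursors that share a window only because they overlap in the genome. Among detected genes, those that share a window had a median of 69.8 CPM and those that share none 25.7 CPM. Mir181a-1, Mir181a-2, Mir181b-1 and Mir181b-2 belong to the 109 detected genes that share a window, and Mir181c and Mir181d to the 271 that share none. Mir181b-2 lies above the first of these medians, Mir181a-1 near it and Mir181a-2 and Mir181b-1 below it.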
